A study of Mus musculus with 37 samples.

Results

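Glycolysis in mouse germ cells was described through 10 genes that lead from glucose uptake to lactate. They are Slc2a1, Hk2, Pfkl, Pfkp, Aldoa, Tpi1, Pgk1, Pgam1, Eno1 and Ldha, chosen by symbol, and all 10 were present among the 24318 genes of the E11.5 and E10.5 tables. The RNA came from primordial germ cells, the embryonic precursors of eggs and sperm, which were sorted by a green reporter under Oct4 control, and it was amplified before library preparation. Dnmt1, the methyltransferase that maintains DNA methylation through replication, was deleted in the conditional knockout (DCKO). Of 37 samples, 25 had values, and the 12 E13.5 samples were not analysed here.

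The E11.5 set held 10 libraries from DCKO embryos (6 female, 4 male) and 8 from controls (4 of each sex). The E10.5 set held 3 from DCKO embryos (2 female, 1 male) and 4 from controls (2 of each sex). The labels give the DCKO genotype as Dnmt1 -/- and the control genotype as wild type. All embryos came from mothers homozygous for a floxed allele (Dnmt1 2lox) that also carried Oct4-IRES-Gfp, crossed with Blimp1-Cre fathers, so the floxed allele and the reporter come from the mothers of both genotypes. Blimp1-Cre acts in early germ cells and in other Blimp1-expressing tissues, so the deletion may reach other cells of the embryo. Nothing in the labels says that each library stands for its own embryo, so the p-values below describe variation among libraries that may be partly technical.

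Glycolysis splits glucose into pyruvate in the cytosol and yields ATP without oxygen. Glucose enters through facilitative transporters, hexokinase traps it, phosphofructokinase commits it, and the lower steps return ATP and NADH before lactate dehydrogenase converts pyruvate to lactate. Cells in low oxygen and many proliferating cells raise these genes through the transcription factor HIF1, which binds the short motif ACGTG or GCGTG. Mouse primordial germ cells are known to change their balance of glycolysis and oxidative phosphorylation as they develop. Methylation of CpG sites in a promoter is a classical brake on some germline genes, and Pgk1 and its testis copy Pgk2 are a textbook pair of promoters that differ in this respect.

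The promoters are shown because the deleted enzyme acts on CpG sites and because HIF1 motifs are known from promoters of glycolysis genes. Each window is the 250 bases before an annotated start, from RefSeq on build GRCm38.p6, whereas the expression tables were made on mm9. The first pair compares X-linked Pgk1, window chrX:106186850-106187099 on the plus strand, with Pgk2, window chr17:40208610-40208859 on the minus strand, and capitals mark CpG sites. The window of Pgk1 held 17 CpG sites and that of Pgk2 held 3.
Pgk1: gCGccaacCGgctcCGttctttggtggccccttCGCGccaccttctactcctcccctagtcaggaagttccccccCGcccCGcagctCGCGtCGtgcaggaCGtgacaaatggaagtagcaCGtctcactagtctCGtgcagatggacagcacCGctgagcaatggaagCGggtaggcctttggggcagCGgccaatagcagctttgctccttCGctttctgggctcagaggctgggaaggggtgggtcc
Pgk2: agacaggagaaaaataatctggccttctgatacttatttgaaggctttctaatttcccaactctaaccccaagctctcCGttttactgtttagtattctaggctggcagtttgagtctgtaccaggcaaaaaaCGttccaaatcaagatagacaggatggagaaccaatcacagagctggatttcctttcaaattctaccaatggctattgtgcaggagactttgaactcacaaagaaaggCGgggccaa

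Ldha is shown because its window held more copies of the HIF1 motif letters than any other window of a member. It lies at chr7:46845554-46845803 on the plus strand, and capitals mark ACGTG or GCGTG on either strand.
Ldha: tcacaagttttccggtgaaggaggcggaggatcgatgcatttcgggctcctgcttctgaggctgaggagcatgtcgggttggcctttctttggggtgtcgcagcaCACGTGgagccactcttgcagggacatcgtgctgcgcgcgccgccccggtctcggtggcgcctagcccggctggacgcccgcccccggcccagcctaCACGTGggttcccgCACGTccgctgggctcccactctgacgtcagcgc
It held 25 CpG sites and 5 matches to ACGTG over both strands, of which CACGTG, a palindrome that counts on each strand, occurred 2 times. All 10 members matched the RefSeq table, with 15 windows in all. ACGTG or GCGTG, searched on both strands, was in 13 of the 15 windows (86.7%) and in 12679 of all 32851 windows (38.6%). By gene, 9 of the 10 members had such a window, and Tpi1 had none. The share by gene was not counted over all genes, and some windows of Eno1 and of Aldoa overlapped each other. CACGTG was in a window of 1 member, Ldha, and in 6.02% of all windows. The members' windows held 0 to 25 CpG sites with a median of 17, against a median of 6 over all windows, and GC-rich windows hold more of any motif that contains CG. A match is a description of letters and not of binding.

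The knockout was checked first in the targeted gene. Dnmt1 ran from 12.998 to 59.4 RPKM in DCKO and from 72.9 to 296 RPKM in control libraries at E11.5. Its E10.5 range was 14.9 to 29.6 RPKM in DCKO and 74.1 to 107 RPKM in control libraries. RPKM is a read value scaled by gene length and by mapped reads, and levels of different genes are set side by side on that scale. Amplification and reads shared with close copies may shift such levels, which was not tested. The groups did not overlap at either stage. At E11.5 it fell by 2.07 on the log2 scale (SE 0.34, limma adjusted p = 0.0355), a call lost in 12 of 18 fits that left out 1 library (adjusted p = 0.0098 to 0.124). At E10.5 the value was -2.07 (SE 0.38), which did not pass (limma adjusted p = 0.991).

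Germ cell identity was checked with 13 markers, and all 13 had a median of at least 1 RPKM in every genotype and stage. Markers of gonadal soma, mesenchyme, endothelium, blood and macrophages were also present in some libraries. Fn1 and Pecam1 were present in every library. At E11.5 they had 75.9 to 179 and 21.2 to 158 RPKM, and at E10.5 88.7 to 134 and 43.1 to 139 RPKM. The other 32 such markers summed to 19.6 to 2105 RPKM in DCKO libraries and 12.6 to 3065 RPKM in control libraries at E11.5. At E10.5 the sums were 15.3 to 2194 RPKM in DCKO libraries and 7.67 to 1146 RPKM in control libraries. Most of the highest sums was erythroid: 1639 RPKM in female DCKO 4 and 2236 RPKM in male control 3 at E11.5. At E10.5 it was 2169 RPKM in male DCKO 1 and 1039 RPKM in male control 2. Male control 3 at E11.5 went against its label in part: its germ cell markers summed to 439 RPKM, against 1977 to 6600 RPKM in the other E11.5 libraries. Cyp11a1 and Amhr2, of gonadal soma, and C1qa, of macrophages, were listed at 0 in every E10.5 library. Depth is unknown, since low values did not fall on multiples of 1 read. Genes at 1 RPKM or more numbered 8277 to 13200 per library at E11.5 and 9125 to 11095 at E10.5.

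All 10 genes were expressed in the sorted germ cell samples, and the medians of the most abundant stood in the same order at both stages. At E11.5, over 18 libraries, the median was highest for Pgam1 at 497 RPKM, above 99.3% of all genes, and for Aldoa at 234 RPKM. Pgk1 followed at 125 RPKM, Ldha at 84.8 RPKM and Slc2a1 at 46.3 RPKM. The lower end held Pfkp at 28.9 RPKM, Eno1 at 22.6 RPKM, Tpi1 at 16.8 RPKM, Hk2 at 11.23 RPKM and Pfkl at 5.50 RPKM, which still lay above 70.5% of all genes. Neighbours at the top kept their order in most libraries: Pgam1 exceeded Aldoa in 17 of 18, Aldoa exceeded Pgk1 in 16 of 18 and Pgk1 exceeded Ldha in 13 of 18. Lower down, Pfkp exceeded Eno1 in 8 of 18 libraries and Eno1 exceeded Tpi1 in 11 of 18, so these were not separated. Tpi1 exceeded Hk2 and Hk2 exceeded Pfkl in 13 of 18 each, as often as Pgk1 exceeded Ldha. At E10.5, over 7 libraries, the first 5 genes stood in the same order, from Pgam1 at 597 RPKM to Slc2a1 at 56.9 RPKM, and Hk2 at 10.1 RPKM and Pfkl at 9.01 RPKM were again last. Tpi1 at 45.5 RPKM and Eno1 at 36.2 RPKM stood above Pfkp at 34.5 RPKM there. By library at E10.5, Pgam1 exceeded Aldoa in 6 of 7, Aldoa exceeded Pgk1 in 7 of 7 and Ldha exceeded Slc2a1 in 7 of 7. Tpi1 exceeded Eno1 in 6 of 7 and Pfkp exceeded Hk2 in 7 of 7. The remaining neighbours were not separated there. Pgk1 exceeded Ldha, Slc2a1 exceeded Tpi1 and Hk2 exceeded Pfkl in 4 of 7 each, and Eno1 exceeded Pfkp in 3 of 7.

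Spread between libraries differed strongly among the genes. The coefficient of variation over the E11.5 libraries was 28.1% for Pgam1 and 30.7% for Pgk1, and 95.2% for Tpi1 and 76.6% for Pfkl. The highest library exceeded the lowest 106-fold for Tpi1, 104-fold for Hk2 and 103-fold for Pfkl, against 2.96-fold for Pgam1 and 4.15-fold for Pgk1. At E10.5 the most even gene was Pgk1, with a coefficient of variation of 15.7%, and the least even was Eno1 with 76.9%.

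**Figure D1:**
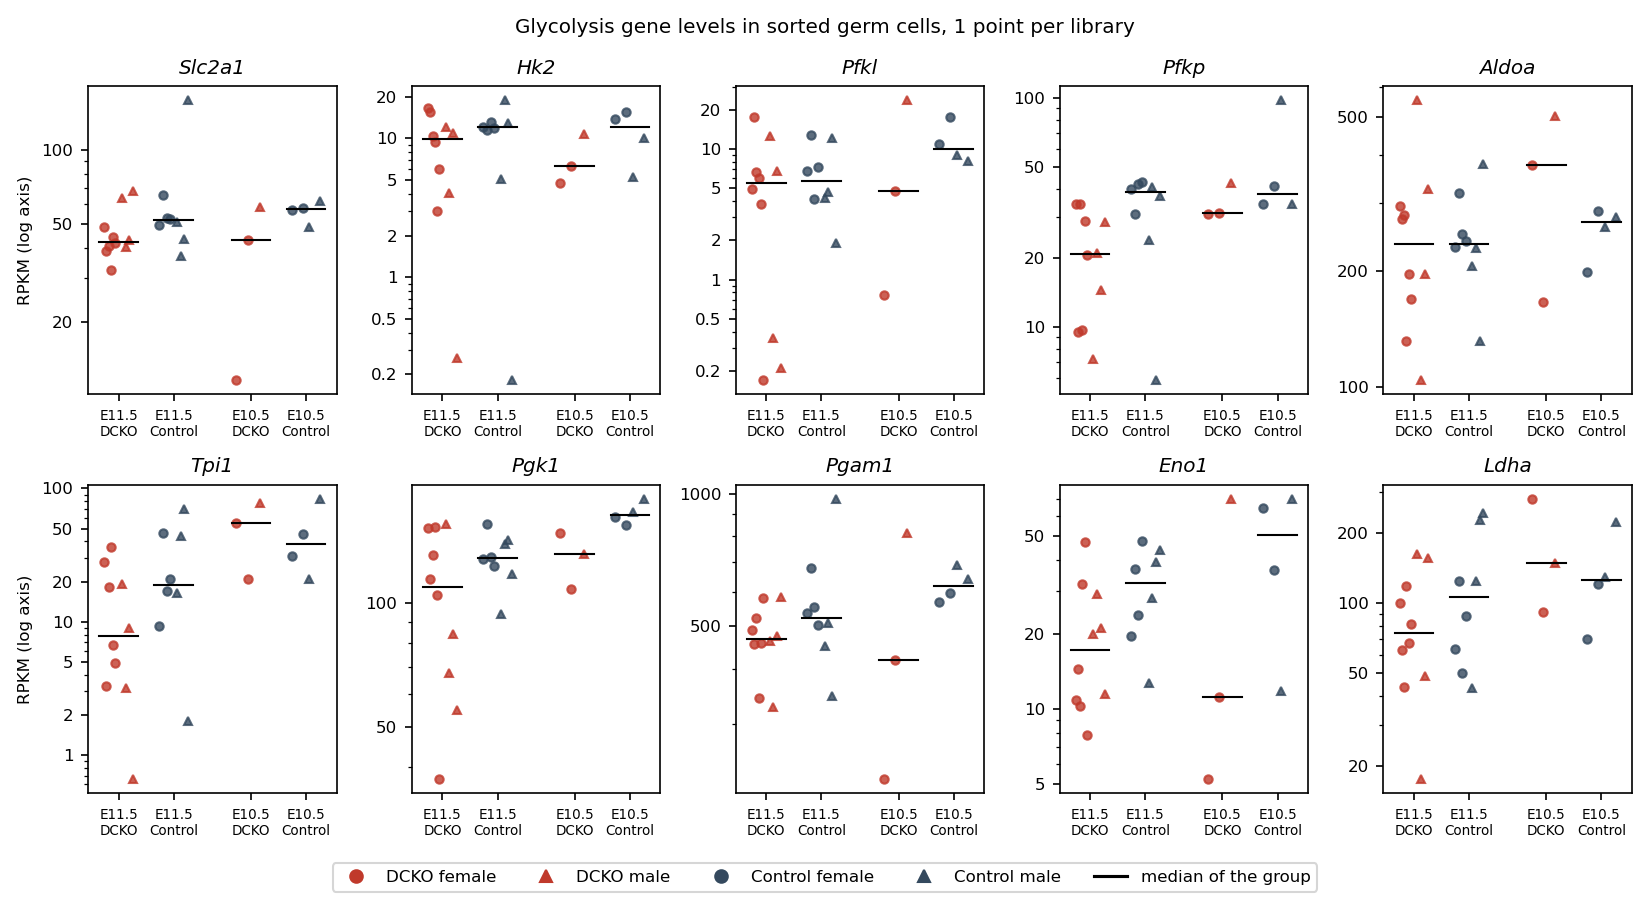
RPKM of the 10 glycolysis genes on log axes, 1 point per library, with DCKO libraries in red and control libraries in blue, females as circles, males as triangles and the group median as a bar. At E11.5 the genotypes overlap in every panel, and at E10.5 Pgk1 is the panel in which the DCKO points, at 108 to 148 RPKM, all lie below the control points, at 155 to 179 RPKM.

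The first comparison asked whether loss of Dnmt1 changed the glycolysis genes at E11.5. No member passed: 0 of 10 had a limma adjusted p under 0.05, against 0.0237% of the 12667 genes tested (3 genes), and 0 of 10 had an unadjusted p under 0.05, against 5.46% of all genes (692). All 10 passed the filter on low values, a mean of at least 1 RPKM. All 10 had a log2 fold change below 0, as did 55% of all genes, and their median was -0.46 against -0.06 over all genes. Without male control 3, whose germ cell markers were low, 10 of 10 were below 0 with a median of -0.39 against -0.01, and without the 3 libraries highest in markers of other cells the median was -0.61 against -0.03. The members were measured in the same libraries, so these 10 directions are not independent. In none of the 10 were the genotypes free of overlap, against 0.0395% of all genes (5). The members' summed RPKM made up 0.0836 to 0.173% of a library's total, median 0.146%, in DCKO libraries and 0.141 to 0.249%, median 0.191%, in control libraries. Fewer cells expressing a gene and less RNA per cell cannot be told apart in such bulk samples.

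Slc2a1 encodes GLUT1, the basal glucose transporter of most embryonic cells. It had 32.4 RPKM at the lowest, 42.3 at the median and 68.1 at the highest in DCKO libraries, against 36.9, 51.8 and 160 RPKM in control libraries at E11.5. The groups overlapped over most of their range, and 1 control library, male control 4, stood far above the rest. Slc2a1 had a log2 fold change of -0.31 (SE 0.25, 95% interval -0.84 to 0.22), and an increase of more than 0.22 or a decrease of more than 0.84 on the log2 scale lay outside the interval. Without male control 4 the value was -0.08.

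Hk2 encodes the inducible hexokinase that phosphorylates glucose at the mitochondrial surface. It ran from 0.262 RPKM through a median of 9.96 to 16.7 RPKM in DCKO libraries, and from 0.182 RPKM through 12.0 to 18.9 RPKM in control libraries. One male library of each genotype was near 0 and the other libraries overlapped. Its log2 fold change was -0.33 (SE 0.55), and without 1 library it ran from -0.75 without male control 4 to 0.03 without male DCKO 4. It was -0.07 without male control 2, -0.15 without male control 3, -0.20 without female DCKO 5, -0.53 without male DCKO 1 and -0.51 without male DCKO 3.

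Pfkl and Pfkp encode the liver and platelet types of phosphofructokinase, the step that commits sugar to glycolysis. Pfkl had 0.170, 5.50 and 17.5 RPKM as lowest, median and highest values in DCKO libraries, against 1.91, 5.74 and 12.9 RPKM in control libraries. Its medians were nearly equal, and 3 DCKO libraries lay below the lowest control. Pfkp had 7.23, 20.8 and 34.5 RPKM in DCKO libraries, against 5.84, 38.6 and 42.8 RPKM in control libraries. Most control libraries of Pfkp lay above the DCKO median, with male control 3 as the lowest library of all. Pfkl was -0.93 without male DCKO 1, -0.34 without male DCKO 4, -0.37 without male DCKO 2 and -0.38 without female DCKO 6. The log2 fold changes over all libraries were -0.61 (SE 0.56) for Pfkl and -0.67 (SE 0.39, 95% interval -1.48 to 0.15, unadjusted p = 0.102 and adjusted p = 0.912 by limma) for Pfkp.

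Aldoa encodes the aldolase that cleaves the 6-carbon sugar, and Tpi1 encodes the isomerase that interconverts its triose products. Aldoa had 104, 235 and 554 RPKM as lowest, median and highest values in DCKO libraries, against 131, 234 and 378 RPKM in control libraries. The medians coincided and the DCKO range was the wider. The log2 fold change of Aldoa was -0.05 (SE 0.29, 95% interval -0.65 to 0.56) and 0.0017 with median-of-ratios scaling, while its mean on the RPKM scale was 252 ± 129 RPKM in DCKO libraries and 247 ± 73.7 RPKM in control libraries (SD, n = 10 and 8). Tpi1 had 0.656, 7.85 and 36.2 RPKM in DCKO libraries, against 1.81, 19.0 and 69.7 RPKM in control libraries. The groups overlapped in their lower range, and 3 control libraries lay above every DCKO library. Tpi1 had the lowest log2 fold change of the members, -1.22 (SE 0.65, 95% interval -2.57 to 0.14, unadjusted p = 0.0757 and adjusted p = 0.909 by limma).

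Pgk1 and Pgam1 encode phosphoglycerate kinase, which makes the first ATP of the lower pathway, and the mutase that follows it. Pgk1 had 37.4, 109 and 155 RPKM as lowest, median and highest values in DCKO libraries, against 93.8, 129 and 155 RPKM in control libraries. The highest libraries of both genotypes were level, and the DCKO group reached further down. Pgam1 had 329, 469 and 582 RPKM in DCKO libraries, against 347, 523 and 973 RPKM in control libraries. Here the lowest libraries were nearly level, and male control 4 was the highest. The log2 fold changes were -0.44 (SE 0.27, 95% interval -0.99 to 0.12) for Pgk1 and -0.24 (SE 0.19, 95% interval -0.65 to 0.16) for Pgam1, whose interval was the narrowest of the members. Without female DCKO 6 Pgk1 was -0.29, and without male control 4 Pgam1 was -0.10.

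Eno1 encodes the enolase that forms phosphoenolpyruvate, and Ldha encodes the lactate dehydrogenase subunit that favours lactate. Eno1 had 7.86, 17.2 and 47.0 RPKM as lowest, median and highest values in DCKO libraries, against 12.7, 32.3 and 47.7 RPKM in control libraries. The tops of the 2 groups were level and the DCKO median was the lower. Ldha had 17.5, 74.2 and 162 RPKM in DCKO libraries, against 43.1, 106 and 243 RPKM in control libraries. The groups overlapped, with 2 male controls at the top and 1 male DCKO library at the bottom. The log2 fold changes were -0.67 (SE 0.36, 95% interval -1.43 to 0.09, unadjusted p = 0.0797 and adjusted p = 0.909 by limma) for Eno1 and -0.48 (SE 0.42) for Ldha. Ldha was -0.16 without male DCKO 2 and -0.75 without male control 1.

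**Figure D2:**
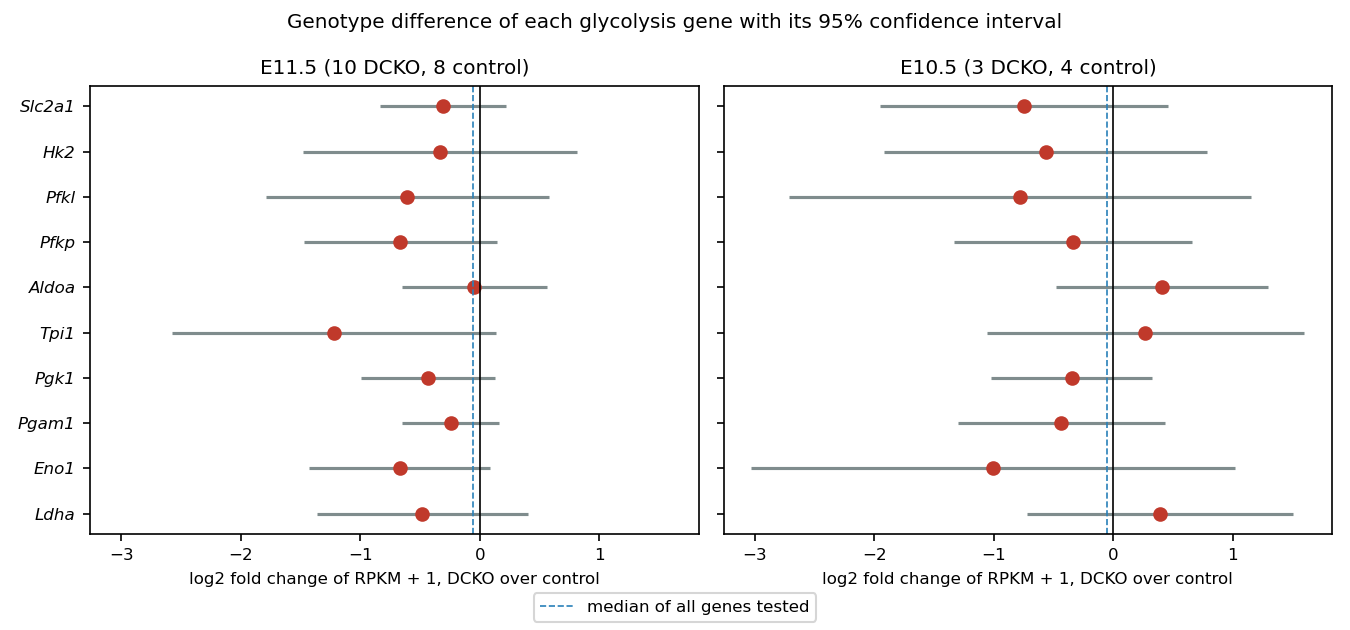
Log2 fold change of RPKM + 1, DCKO over control, for each glycolysis gene at E11.5 and E10.5, with the limma estimate as a point, its 95% confidence interval as a line and the median of all genes tested as a dashed line. Every interval includes 0, all 10 points lie below 0 at E11.5, and Aldoa, Tpi1 and Ldha lie above 0 at E10.5, where library weights put them below 0.

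Split by sex at E11.5, the members again gave 0 of 10 adjusted p-values under 0.05 in females, against 0.00789% of all genes, and 0 of 10 in males, against 0.0316%. The log2 fold change was below 0 for 10 of 10 members in females, against 51.3% of all genes, and for 9 of 10 in males, against 55.6%. The medians were -0.41 in females and -0.47 in males. Whether the genotype effect differed between the sexes was tested directly, and 0 of 10 members passed, against 0% of all genes, where 454 genes had an unadjusted p under 0.05 and no member did. The difference was below 0 for 6 of 10 members, against 46.6% of all genes. Some lists of cell markers had opposite directions in the sexes, and others did not. In females the genotype log2 fold change was above 0 for 7 of 8 mesenchymal, 6 of 6 endothelial and 4 of 4 erythroid markers. In males it was above 0 for 0 of 8, 0 of 6 and 0 of 4. Gonadal soma markers were above 0 for 3 of 5 in females and 1 of 5 in males. Macrophage markers gave 0 of 3 and 1 of 3, and germ cell markers 3 of 13 and 8 of 13. Of all 12667 genes tested, 6051 were above 0 in females and 5524 in males. The part of these markers in the members' values was not tested.

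The same genotype comparison at E10.5 rested on 3 DCKO and 4 control libraries. No member passed, 0 of 10 against 0% of the 11584 genes tested by limma, and 0 of 10 had an unadjusted p under 0.05, against 3.09% of all genes (358). The log2 fold change was below 0 for 7 of 10 members, against 53.2% of all genes, with a median of -0.39 against -0.05. With library weights it was below 0 for 10 of 10, and the members' median was -0.13 without female DCKO 1 and -0.62 without male DCKO 1. Pgk1 was the member without overlap between genotypes, 1 of 10 against 5.15% of all genes (597). The members made up 0.101, 0.121 and 0.268% of all RPKM in the DCKO libraries, in rising order, and 0.157 to 0.237% in control libraries.

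At E10.5 Slc2a1 had 11.55 and 43.1 RPKM in female and 58.5 RPKM in male DCKO libraries, against 56.9 and 57.9 RPKM in female and 48.7 and 61.8 RPKM in male control libraries. Female DCKO 1 was far below all others, and the male DCKO library lay among the controls. On the log2 scale Slc2a1 differed by -0.75 (SE 0.53, 95% interval -1.96 to 0.46), or -0.16 without female DCKO 1 and -1.31 without male DCKO 1. Hk2 had 4.79 and 6.29 RPKM in female and 10.8 RPKM in male DCKO libraries, against 13.9 and 15.6 RPKM in female and 5.30 and 10.1 RPKM in male control libraries. The 2 DCKO females were below the 2 control females, and the males lay between them or among the DCKO females. The difference was -0.57 (SE 0.59) on the log2 scale, -0.31 without female DCKO 1, -0.35 without female control 2 and -1.27 without male DCKO 1.

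Pfkl had 0.766 and 4.76 RPKM in female and 23.8 RPKM in male DCKO libraries, against 10.9 and 17.6 RPKM in female and 9.01 and 8.18 RPKM in male control libraries. The DCKO libraries held both the lowest and the highest values of the stage. Pfkp had 31.1 and 31.3 RPKM in female and 42.4 RPKM in male DCKO libraries, against 34.3 and 41.4 RPKM in female and 97.7 and 34.5 RPKM in male control libraries. Apart from 1 control male, all libraries of Pfkp lay close together. Pfkl had a log2 fold change of -0.78 (SE 0.85), which was 0.0018 without female DCKO 1, -0.27 without female control 2 and -2.22 without male DCKO 1. Pfkp had one of -0.34 (SE 0.44), or -0.08 without male control 1 and -0.57 without male control 2.

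Aldoa had 375 and 166 RPKM in female and 505 RPKM in male DCKO libraries, against 198 and 286 RPKM in female and 259 and 275 RPKM in male control libraries. The DCKO values enclosed the control values on both sides. Tpi1 had 55.1 and 21.1 RPKM in female and 77.6 RPKM in male DCKO libraries, against 30.9 and 45.5 RPKM in female and 21.004 and 83.4 RPKM in male control libraries. The 2 genotypes covered the same range. Aldoa stood at 0.41 (SE 0.39) on the log2 scale, and Tpi1 at 0.27 (SE 0.58), which was -0.13 without male DCKO 1 and -0.12 without male control 1. Over fits without 1 library Tpi1 reached 0.71 without female DCKO 2, and Aldoa ran from 0.07 without male DCKO 1 to 0.79 without female DCKO 2.

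Pgk1 had 147.5 and 108 RPKM in female and 132 RPKM in male DCKO libraries, against 162 and 155 RPKM in female and 166 and 179 RPKM in male control libraries. All 3 DCKO libraries were below all 4 controls. The log2 fold change of Pgk1 was -0.35 (SE 0.30, 95% interval -1.02 to 0.33, limma adjusted p = 0.991). Pgam1 had 225 and 420.4 RPKM in female and 813 RPKM in male DCKO libraries, against 568.4 and 597 RPKM in female and 689 and 640.2 RPKM in male control libraries. The DCKO females were the lowest libraries and the DCKO male the highest, and the log2 fold change was -0.43 (SE 0.38), or -0.09 without female DCKO 1 and -0.92 without male DCKO 1.

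Eno1 had 5.20 and 11.22 RPKM in female and 70.2 RPKM in male DCKO libraries, against 64.5 and 36.2 RPKM in female and 11.8 and 70.1 RPKM in male control libraries. High and low libraries were found in both genotypes, with female control 2 midway. The 3 highest libraries of Eno1, male DCKO 1, male control 2 and female control 1, were also those with blood cell RNA: 7 erythroid markers summed to 2169, 1039 and 741 RPKM there and to between 2.77 and 4.77 RPKM in the other 4 libraries. The part of this carry-over in the Eno1 values was not tested. At E11.5 the erythroid sums of female DCKO 4, female DCKO 6, female control 4 and male control 3 were 1639, 1377, 353 and 2236 RPKM, against at most 10.6 RPKM in the other libraries, and their Eno1 values of 31.9, 7.86, 47.7 and 39.2 RPKM spanned the whole range of that stage. Tpi1 was highest of all E11.5 libraries in male control 3, at 69.7 RPKM. Ldha had 280 and 91.2 RPKM in female and 148 RPKM in male DCKO libraries, against 70.3 and 121 RPKM in female and 129 and 224 RPKM in male control libraries at E10.5. The genotypes overlapped in part, with female DCKO 1 above all controls and female control 1 below all DCKO libraries. The log2 fold change of Ldha was 0.39 (SE 0.49), or -0.11 without female DCKO 1 and 0.79 without male DCKO 1. That of Eno1 was -1.005 (SE 0.89). Eno1 was -2.50 without male DCKO 1, -1.67 without male control 1, -0.39 without female DCKO 1 and -0.43 without female control 1.

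Sex was compared next, because Pgk1 is X-linked and germ cells of females reactivate the silent X chromosome around these stages. Pgk1 averaged 123 ± 34.4 RPKM in females and 107 ± 37.1 RPKM in males at E11.5 (SD, n = 10 and 8). The female minus male log2 difference was 0.23 (SE 0.27, 95% interval -0.33 to 0.79, limma adjusted p = 0.932) at E11.5 and -0.10 (SE 0.30, limma adjusted p = 0.983) at E10.5. At E11.5, 0 of 10 members passed between the sexes, against 0.0395% of all genes (5), and the log2 difference was below 0 for 3 of 10, against 43.8%. At E10.5, 0 of 10 passed, against 0.0173% of all genes (2), and it was below 0 for 9 of 10, against 49%. No member had an unadjusted p under 0.05 in either comparison. At E11.5 all 13 germ cell markers were above 0 between the sexes, as were 7 of 10 members. At E10.5 all 6 erythroid markers tested were below 0, with a median of -1.73, and 4 of 5 endothelial markers were. The part of these markers in the sex differences was not tested.

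The stages were set side by side without a test, since each table may have its own normalization. In control libraries the median of Slc2a1 was 51.8 RPKM at E11.5 and 57.4 RPKM at E10.5, and that of Ldha was 106 and 125 RPKM. Tpi1 had a control median of 19.0 RPKM at E11.5 and 38.2 RPKM at E10.5, and Pfkp had 38.6 and 37.9 RPKM. A share of 2 isozymes within a library does not depend on how the tables were scaled. Slc2a1 made up 44.5 to 85.4% of Slc2a1 plus Slc2a3, the high-affinity transporter GLUT3, in control libraries at E11.5 and 27.6 to 40.0% at E10.5, without overlap. The highest was male control 3, which was low in germ cell markers, and the control females at E11.5 had 45.6 to 52.2%. The control shares of Hk2, Pfkp, Pfkl, Ldha and Eno1 among their related genes overlapped between the stages. Overlap between the stages was not counted over all genes. In DCKO libraries the share was 31.9 to 94.1% at E11.5 and 6.998 to 48.2% at E10.5, with overlap. Slc2a3 itself had a control median of 47.2 RPKM at E11.5 and 102 RPKM at E10.5, and a DCKO median of 32.9 RPKM at E11.5 and 119 RPKM at E10.5. This share was chosen for description after its values were seen.

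Isozyme shares by genotype are given without a test. Pfkp was the main phosphofructokinase, with a median of 75.3% of Pfkl, Pfkm and Pfkp in DCKO libraries and 71.9% in control libraries at E11.5, and with more than the other 2 combined in 15 of 18 libraries. Hk2 made up a median of 57.4% of Hk1 plus Hk2 in DCKO libraries and 48.7% in control libraries at E11.5, and of 27.8% in DCKO libraries and 48.9% in control libraries at E10.5. Ldha, the muscle type subunit, was the minor one: its share of Ldha plus Ldhb had a median of 17.7% in DCKO libraries and 21.4% in control libraries at E11.5, and of 33.7% and 32.9% at E10.5. Ldhb, the heart type subunit that favours pyruvate, had a median of 308 RPKM over the E11.5 libraries. Pgk2, the testis copy of Pgk1 whose promoter is printed above, was listed at 0 in all 25 libraries of both genotypes. Ldhc, the testis lactate dehydrogenase, ran from 0 to 28.6 RPKM with a median of 1.33 in DCKO libraries, against 0 to 14.7 RPKM with a median of 3.19 in control libraries at E11.5.

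**Figure D3:**
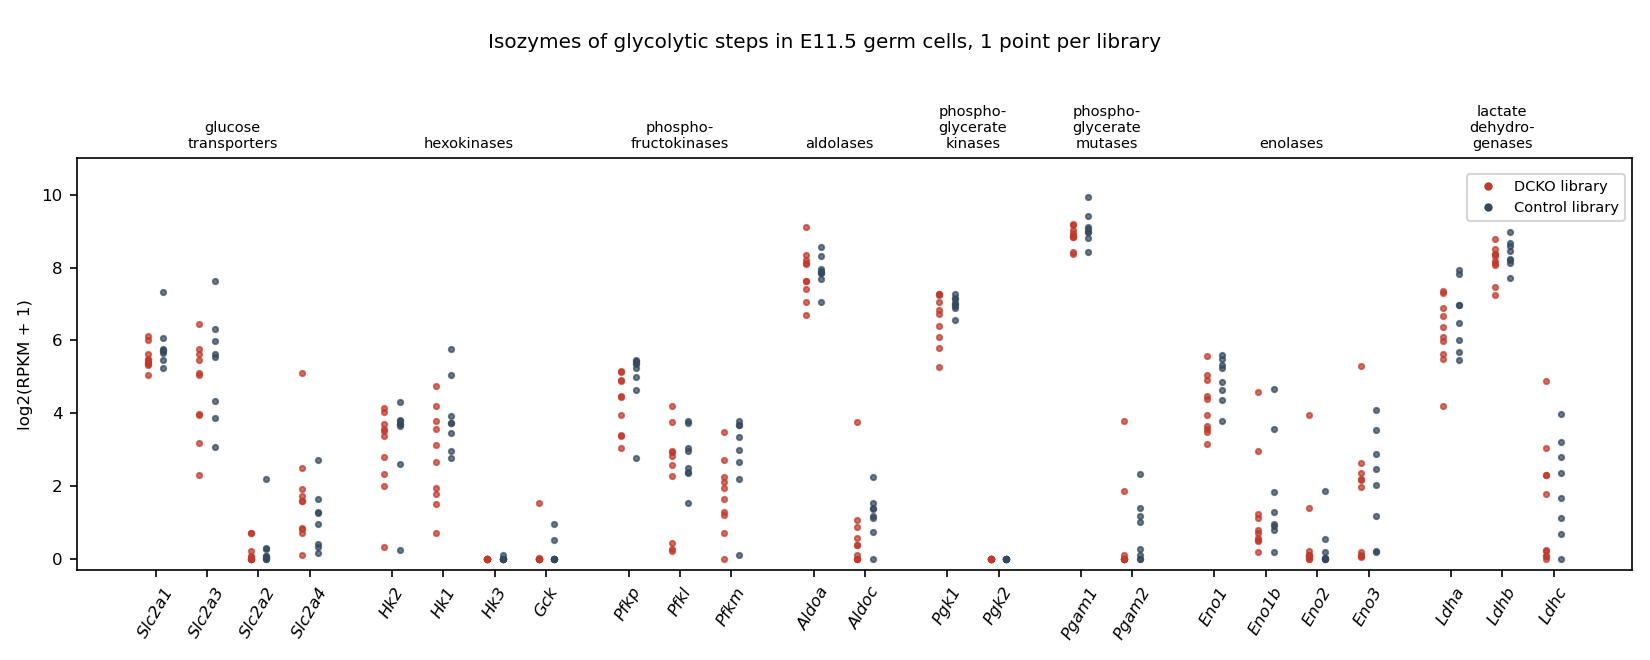
Level of isozymes of glycolytic steps as log2(RPKM + 1) in the 18 E11.5 libraries, 1 point per library, with DCKO libraries in red left of control libraries in blue. Pgk2 lies at 0 beside Pgk1, Ldhb has the higher median and overlaps with Ldha, and Slc2a1 and Slc2a3 reach similar levels.

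Of the other glycolysis genes, 23 were in the tables and 18 were tested at E11.5. None passed in either direction, 5 had a log2 fold change above 0 and 13 below 0, and their median was -0.38 against -0.06 over all genes. Gapdh, which oxidises the triose phosphate, averaged 739 ± 161 RPKM in DCKO libraries and 949 ± 203 RPKM in control libraries (SD, n = 10 and 8), with a log2 fold change of -0.38 (SE 0.17, unadjusted p = 0.0397 and adjusted p = 0.902 by limma). Hk1 and Pfkm, named after their values were seen, had -1.27 (SE 0.50) and -1.18 (SE 0.47), also with unadjusted p under 0.05 and adjusted p = 0.902 by limma. Slc2a3 had -0.78 (-0.30 without male control 4), Gpi1, the sugar phosphate isomerase, 0.24, Pkm, the pyruvate kinase, -0.16 and Ldhb -0.23 on the log2 scale. At E10.5, 16 were tested, 8 above 0 and 8 below 0, with none passing and a median of -0.04. Gapdh there had a log2 fold change of 0.02 (SE 0.34). Hk1 at E10.5 averaged 25.2 ± 12.2 RPKM in DCKO libraries and 12.6 ± 2.50 RPKM in control libraries (SD, n = 3 and 4). That direction was opposite to the one at E11.5. Pfkm averaged 3.33 ± 2.99 RPKM in DCKO and 6.09 ± 1.26 RPKM in control libraries, the same direction as at E11.5.

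No gene of the neighbouring pathways passed. Of 12 genes of pyruvate entry and oxidation in mitochondria, among them the carrier subunit gene Mpc1, the pyruvate dehydrogenase complex genes Pdha1, Pdhb, Dlat and Dld and the inhibitory kinase gene Pdk3, 5 had a log2 fold change above 0 and 7 below 0 at E11.5. Pdhb, a subunit of pyruvate dehydrogenase, was the most abundant of these 6 with a median of 99.3 RPKM. The 8 pentose phosphate genes were split 4 and 4, with Taldo1, a transaldolase, at a median of 38.1 RPKM and Pgls, Pgd and Tkt at 21.7, 20.9 and 21.7 RPKM. Of 15 regulators, 6 were above 0 and 9 below 0. Hif1a had a median of 26.6 RPKM, its oxygen-sensing hydroxylases Egln2 and Egln3 24.3 and 25.9 RPKM, Mycn 57.8 RPKM, Max 186 RPKM, the RNA-binding protein gene Lin28a 82.6 RPKM and Trp53 322 RPKM. Of 12 hypoxia targets outside glycolysis, 6 were above 0 and 6 below 0 with a median of -0.02. They included Mif at a median of 745 RPKM, Bnip3l at 40.5 RPKM, Kdm3a at 32.2 RPKM, Ero1l at 28.9 RPKM, Bnip3 at 21.7 RPKM and Higd1a at 21.2 RPKM. The 3 gluconeogenesis genes tested were all below 0, with a median of -0.40, and of the 3 testis paralogues tested 2 were above 0 and 1 below 0.

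At E10.5 none of these lists had a gene that passed. The numbers above and below 0 were 4 and 8 for pyruvate genes, 2 and 6 for pentose phosphate genes, 5 and 10 for regulators, 5 and 6 for hypoxia targets, 2 and 1 for gluconeogenesis and 2 and 1 for the testis paralogues. Mpc2, a subunit of the mitochondrial pyruvate carrier named after its values were seen, had 3.04 on the log2 scale (SE 1.03, unadjusted p = 0.0168 and adjusted p = 0.991 by limma), and 0.55 (SE 0.57) at E11.5.

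Across the 18 E11.5 libraries the members did not vary as one group. Of 45 pairs, 8 had a Benjamini-Hochberg adjusted permutation p under 0.05 for Pearson's r (100000 resamples, two-sided), all with positive r, and the median r over all pairs was 0.20. In 1 set, chosen after the values were seen, Slc2a1 and Pgam1 had r = 0.791 and rho = 0.583 (adjusted permutation p = 0.0057 and 0.0744). Their r was 0.537 without the 2 libraries farthest from the median of Slc2a1. Aldoa had r = 0.659 with Pgam1 and 0.615 with Slc2a1. In the other set, Pfkl and Pgk1 had r = 0.803 and rho = 0.622 (adjusted permutation p = 0.0057 and 0.0744). Their r was 0.604 without the 2 libraries farthest from the median of Pfkl. Hk2 had r = 0.742 with Tpi1 and 0.681 with Pfkl. Tpi1 and Pgk1 were the pair that passed on both measures, with r = 0.684 and rho = 0.833 (adjusted permutation p = 0.0155 and 0.0027). Their r was 0.689 without the 2 libraries farthest from the median of Tpi1. For Slc2a1 and for Tpi1 the farthest libraries were male control 4 and male DCKO 4, the 2 with the fewest genes. Libraries far from the median of the second gene of a pair were kept. With genotype and sex means removed, r was 0.833 for Slc2a1 and Pgam1, 0.780 for Pfkl and Pgk1 and 0.608 for Tpi1 and Pgk1.

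A few libraries weighed on these relations. Male control 4 had 160 RPKM of Slc2a1 and 973 RPKM of Pgam1, the highest of the stage, with 0.182 RPKM of Hk2 and 1.81 RPKM of Tpi1. Its RPKM total over all genes was also the highest of the stage, 1027700, against 516450 in male control 3 and 895850 in male DCKO 1 as the next extremes. The correlations used values not rescaled to these totals, and the part of the totals in them was not tested. Male DCKO 4 had 0.262 RPKM of Hk2 and 0.656 RPKM of Tpi1, and these 2 libraries also had the fewest genes at 1 RPKM or more, 8607 in male DCKO 4 and 8277 in male control 4. Slc2a1 and Hk2 had r = -0.627 (adjusted permutation p = 0.059) and 0.0955 without those 2 libraries, so that relation rested on them. The part of library complexity in the other pairs was not tested beyond their values without those 2 libraries, where r of Pfkl and Pgk1 was 0.787 and that of Hk2 and Tpi1 was 0.511.

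**Figure D4:**
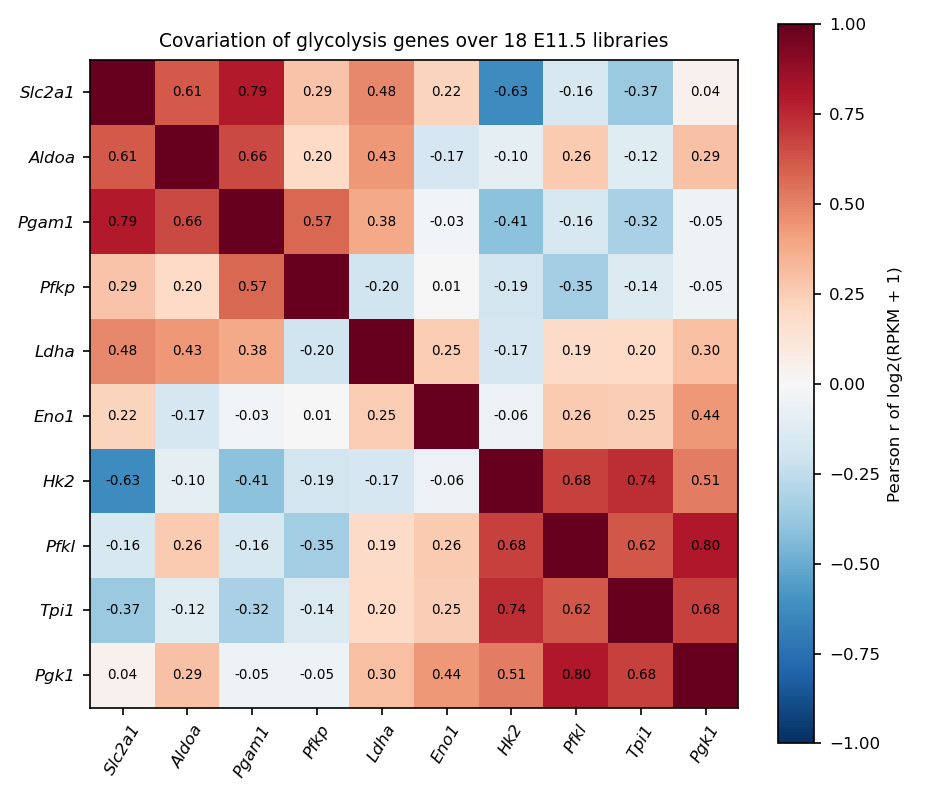
Pearson's r of log2(RPKM + 1) for each pair of the 10 glycolysis genes over the 18 E11.5 libraries, from -1 in blue to 1 in red. Slc2a1, Aldoa and Pgam1 form one block with r of 0.61 to 0.79, and Hk2, Pfkl, Tpi1 and Pgk1 form another with r of 0.51 to 0.80.

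The genes outside the lists whose pattern was most like the members' mean over the 18 E11.5 libraries, of 12547 compared, were Gfpt1 with r = 0.813, Fbxw8 with 0.782, Usb1 with 0.770, Faap24 with 0.764 and Gna13 with 0.756. Gfpt1 encodes the first enzyme of the hexosamine branch that leaves glycolysis after glucose phosphate isomerisation, and had a median of 18.3 RPKM. The points share their libraries and their complexity, and these genes are the extremes of many, so no p is given.

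Several members have close copies that can share reads, and how the authors treated such reads is not given in the sources used here. At 90% identity over 500 bases or more, 10 other genes matched transcripts of Ldha, 6 those of Eno1, 5 those of Aldoa, 3 those of Pgam1, 2 those of Pgk1 and 1 those of Tpi1, most of them annotated as pseudogenes. Slc2a1, Hk2, Pfkl and Pfkp had none. At 95% identity the numbers were 3 for Eno1, 2 each for Ldha and Pgk1 and 1 for Pgam1. They were 0 for Aldoa and Tpi1, whose closest copies had 92.7% and 94.2% identity. The values of Ldha, Eno1, Aldoa, Pgam1, Pgk1 and Tpi1 are therefore less certain. Eno1b, 1 of the 6 genes that matched Eno1, has its own row, as have Aldoart1 for Aldoa and Gm13315 for Ldha. The highest identity to Eno1 among the 6 was 99.6%. Eno1 made up a median of 96.7% of Eno1 plus Eno1b in DCKO libraries and 93.4% in control libraries at E11.5. At E10.5 the medians were 58.7% in DCKO libraries and 75.96% in control libraries.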

How the data were processed

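Polyadenylated RNA of sorted germ cells was sequenced. The authors deposited 1 table of RPKM values per stage. The submitters' processing notes name build mm9, TopHat2 2.1.0, Cufflinks 2.2.1 and Cuffdiff, without roles. Depth is unknown, so no counting interval is given. Amplification before library preparation can widen the spread of low genes, which was not tested. No 2 libraries were near-identical (highest pairwise r 0.878 among E11.5 and 0.831 among E10.5 libraries).

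Samples were grouped by labelled stage, genotype and sex. Tests used limma 3.58.1 in R 4.3.3 with a mean-variance trend on log2(RPKM + 1), which understates changes of low genes. A mean of 1 RPKM or more was required, and p-values were adjusted over all genes tested by Benjamini-Hochberg with a threshold of 0.05. The E11.5 fit had the 4 genotype and sex groups, and the E10.5 fit had additive genotype and sex terms. Code was tested on simulated data. Named genes were all 10 members, Dnmt1, genes of the other lists that passed or reached a median of 20 RPKM in the E11.5 libraries, and the 5 genes most like the members' mean. The members and lists were chosen with earlier results of these data known. Copies were sought with BLAST 2.17.0 in GENCODE transcripts. Alternatives covered the pseudocount, filter, scaling, weights, blocks, covariates and left-out libraries.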

Additional observations from a re-analysis of the deposited data

Results flagged for a closer look

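Pgk1 in female DCKO 6 at E11.5 stood apart from its group. It had 37.4 RPKM, against 104 to 153 RPKM in the other 5 female DCKO libraries. As log2(RPKM + 1), its gap to the nearest was 0.727 of the whole range, above Dixon's critical value of 0.625 for 6 libraries. On the RPKM values themselves the gap is a smaller part of the range and lies below that critical value. The flag therefore depends on the log2 scale. Of 40 combinations of member and group examined on the log2 scale, this was the 1 that stood apart, where chance gives about 1 in 20. Female DCKO 6 also had 1377 RPKM of erythroid markers, whose part in its Pgk1 value was not tested.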

How the results depend on the processing

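Under every alternative tried, 0 of 10 members passed in each of the 7 comparisons. At E11.5 the members below 0 numbered 9 to 10 over 13 settings and over 18 fits without 1 library, and their median log2 fold change was -0.61 to -0.31 over the settings. At E10.5 they numbered 7 to 10 over 10 settings, with medians of -0.45 to -0.36, and medians of -0.62 to -0.13 without 1 library. These included fits, chosen after seeing the data, without male control 3, female DCKO 4 and male DCKO 1, the 3 highest in somatic markers, and without male control 4 and male DCKO 4, the 2 poorest in detected genes.

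Directions turned round for single members. Aldoa at E11.5 was 0.0017 with median-of-ratios scaling, 0.0139 with the replicate block by replicate number and 0.0178 without the 2 libraries poorest in genes, and -0.2392 to 0.1617 without 1 library. Hk2 at E11.5 was -0.7461 to 0.0288 without 1 library. Pgk1, female minus male at E11.5, was -0.0139 with the replicate block by title number. At E10.5 library weights gave -0.2551 for Aldoa, -0.595 for Tpi1 and -0.1443 for Ldha, and the replicate block by title number gave -0.1203 for Tpi1. Without 1 library, Pfkl was -2.2211 to 0.0018, Tpi1 -0.1294 to 0.7056 and Ldha -0.1075 to 0.7852 at E10.5. The causes were not tested. The Dnmt1 call at E11.5 was lost in 7 of 13 settings (adjusted p up to 0.702 over the settings) and without each of female DCKO 1, 3, 4, 5 and 6, male DCKO 2 and 4, female control 1, 2 and 4 and male control 3 and 4.

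No label says what the replicate and title numbers share, and not every same-numbered pair had a correlation over 0.1, so pairing was neither shown nor shown absent. Deviations from the group mean in libraries with the same replicate number had correlations of -0.227 to 0.249 at E11.5 and 0.0068 to 0.0538 at E10.5. At E11.5, 8 of 16 libraries correlated best with their own number. The E10.5 count was 6 of 6, but the groups used there held 2 libraries each, whose deviations mirror each other. That count follows from the signs of these small correlations and is not agreement among 6 libraries. By title number the E11.5 correlations were -0.0229 to 0.490, 7 of 16 pairs were over 0.1, and 11 of 16 libraries correlated best with their own, a hint from the data and not from the design. With either replicate block, 0 members passed.

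Over all genes, 3 passed for genotype at E11.5 and 2 to 5 under the alternatives. The counts were 1 against 1 to 4 in females, 4 against 1 to 4 in males, 0 against 0 to 1 for their difference, and 5 against 1 to 51 between the sexes, the highest with library weights. At E10.5 they were 0 against 0 to 11 for genotype, the highest without male DCKO 1, and 2 against 1 to 6 between the sexes. Depth is unknown and limits what can be said of Hk2, Pfkl and Tpi1, whose lowest libraries were under 1 RPKM.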
